A study of Mus musculus with 6 samples.

Results

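The mouse gene Smad7 and the transcripts measured beside it on chromosome 18 were followed in J1 embryonic stem cells given SB431542 or DMSO. Smad7 was the RefSeq transcript NM_001042660, matched through its accession, and it had 1 probe on the array, A_51_P403636. The other members were the probes that the array design names by a genome position instead of a gene and whose position overlaps chr18:75400000-75650000 in the mouse build mm9. They numbered 22 probes in 4 named intervals, so that 23 of the 55681 non-control probes were members. Of the 3540 position-named intervals on the array, those 4 lay in the window. The gene and the window were chosen because of the difference between SB431542 and DMSO in these same arrays. The members' differences in that comparison are therefore given as a description, without a test.

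Total RNA was labelled with Cy3 and hybridised to 6 Agilent arrays, 1 sample per array. The cells were J1, a mouse embryonic stem cell line of strain 129S4/SvJae derived from the inner cell mass. In 3 samples they had been treated with 3 µM SB431542 for 24 h, and in 3 samples with DMSO, the vehicle, for 24 h. Both groups were adapted to gelatin and grown with serum replacement and 1000 U/mL of LIF, the cytokine that keeps mouse embryonic stem cells self-renewing, and all samples came from this line. The labels do not say whether the 3 samples of a group came from separate cultures. The p-values therefore refer to the spread among these samples alone, and that spread may be technical.

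SB431542 blocks the kinases ALK4, ALK5 and ALK7, the type I receptors that pass activin, Nodal and TGF-beta signals to the transducers Smad2 and Smad3. Smad7 is an inhibitory Smad. It lacks the site at which the receptors phosphorylate the transducers, binds activated type I receptors and brings Smurf ubiquitin ligases to them, which lowers signalling. Its gene is itself induced by Smad2, Smad3 and Smad4 in many cell types, which closes a negative feedback loop.

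Spots well above background made up 63.9 to 66.2% of the non-control spots of an array, and no spot was saturated. The 75th percentile of the processed signal lay between 452 and 564, and it was the scale to which each array was set. Arrays are here said to be on 1 slide if they share both the slide barcode and the scan date. By that definition the third SB431542 array was on another slide than the other 5. The members' differences and the limma calls were therefore also computed without it. The marker sums, list medians, unadjusted counts and profile distances below were computed over all 6 arrays only. All 9 embryonic stem cell markers examined, among them Pou5f1, Nanog and Sox2, were well above background on all 6 arrays. Their summed level, in units of the array's 75th percentile, was 465 to 518 in the SB431542 samples and 631 to 654 in the DMSO samples. Of 8 fibroblast markers, 4 were above background on all arrays and Postn and Lum on none, with a sum of 1.86 to 2.07 with SB431542 and 2.26 to 2.42 with DMSO. All 5 primitive endoderm markers were above background, summing to 0.806 to 0.933 with SB431542 and 0.775 to 0.846 with DMSO. Of 5 trophoblast markers, 4 were above background and Elf5 was on none of the arrays, with a sum of 3.78 to 4.30 with SB431542 and 4.54 to 4.79 with DMSO. The part of these marker shifts in the results below was not tested.

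Smad7 was far lower in the SB431542 cells. Its processed signal, a background-subtracted brightness on a linear scale, was 118, 98.1 and 125 on the SB431542 arrays and 2942, 2852 and 2859 on the DMSO arrays. The samples of each group lay close together, the groups did not overlap, and the probe was well above background on all 6 arrays, so that Smad7 RNA was still measured in treated cells. On the log2 scale, relative to the array's 75th percentile, Smad7 was at -2.16 ± 0.05 with SB431542 and 2.43 ± 0.02 with DMSO (SD, n = 3 each). The difference was -4.60, a level 24.2-fold lower with SB431542, and it was -4.59 among the 5 arrays of the slide that both groups share. In a bulk sample, fewer cells that express the gene and less RNA per cell cannot be told apart.

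A feature is here a gene, represented by its brightest probe, or a probe without a gene symbol. The test took in features that passed the scanner's flag for a signal well above background on 3 arrays or more. Of 31285 features tested with limma, 3383 passed an adjusted p of 0.05 (Benjamini-Hochberg), which is 10.8% of them. Of all features, 6.62% were lower and 4.2% were higher with SB431542, and the median change was 0.02 on the log2 scale. By size of fall, Smad7 was the 7th of all features. Of the 23 member probes 12 were tested and 10 were called lower. These were values that chose the members, so nothing is read from that count.

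**Figure D1:**
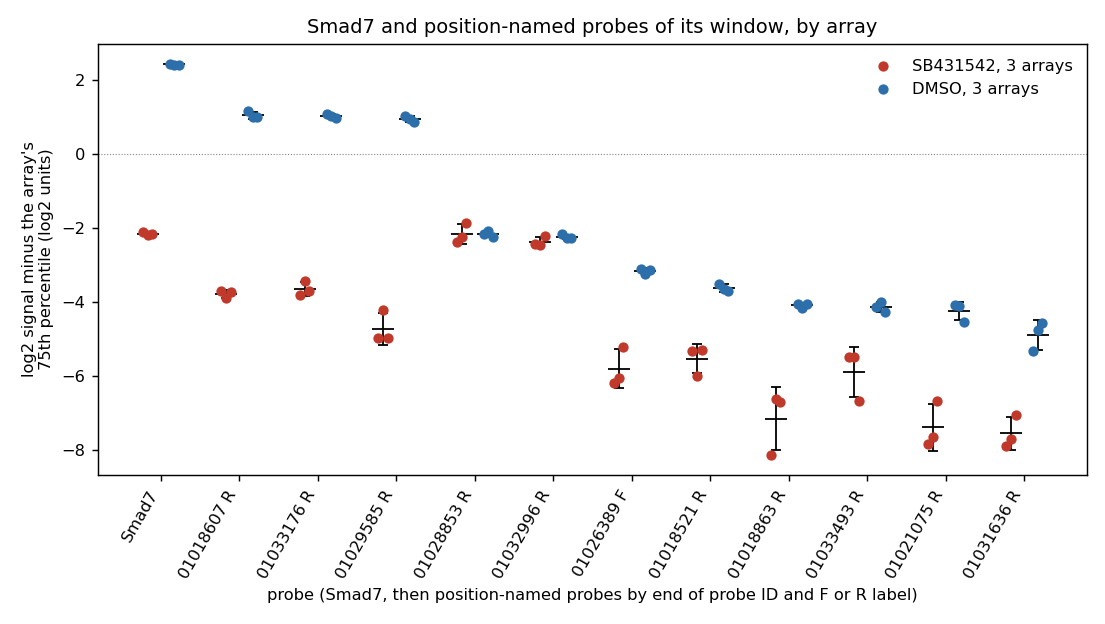
Log2 processed signal minus the array's 75th percentile (vertical axis) for the Smad7 probe and the 11 position-named probes that were well above background on all DMSO arrays (horizontal axis); points are arrays, and the bars give the mean and the SD of 3 arrays. The SB431542 points lie below the DMSO points for every probe shown except A_30_P01028853 and A_30_P01032996, where they overlap. The position-named probes shown were picked by their DMSO signal, a choice that favours probes lower with SB431542. Nothing is therefore read from how many of them fall.

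The position-named probes lay in 4 intervals of the window, written here as the array design names them. The design adds the letter F or R to each name, and the files do not say what it stands for. The first interval, chr18:75448313-75456983, is 8671 bp long and had 1 probe, labelled R. After a gap of 44108 bp came chr18:75501092-75501330, 239 bp long, with 1 probe labelled F. The interval with most members, chr18:75513062-75523889, starts 11731 bp further on, is 10828 bp long and had 17 probes, 8 labelled F and 9 labelled R. The last, chr18:75518299-75524782, is 6484 bp long, shares 5591 bp with the one before it and had 3 probes, all labelled R. Probes of the same or of overlapping intervals may read the same RNA, so they are not independent of each other. No gene annotation in mm9 was used here, and the intervals are not assigned to an exon, intron or strand of Smad7.

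The overlapping pair of intervals held 3 probes with a strong signal in DMSO cells, all labelled R, and each was far lower with SB431542. A_30_P01029585, in chr18:75518299-75524782, read 16.2, 24.0 and 17.8 with SB431542 and 1092, 1030 and 971 with DMSO. Every treated array was near the dim end of the scale and every DMSO array near a signal of 1000, with no overlap. The log2 difference was -5.68, or 51.2-fold lower. A_30_P01018607, in chr18:75513062-75523889, read 39.4, 30.2 and 42.3 with SB431542 and 1204, 1064 and 1060 with DMSO. The groups were again far apart, by -4.83 on the log2 scale or 28.4-fold. A_30_P01033176 of the same interval read 36.0, 41.8 and 43.2 with SB431542 and 1144, 1083 and 1049 with DMSO. Its groups did not overlap, and its difference was -4.69, or 25.7-fold lower. These 3 probes stayed well above background on all SB431542 arrays. With another background correction, normexp with an offset of 50, which compresses differences of dim signals, A_30_P01029585 differed by -3.68, A_30_P01018607 by -3.57 and A_30_P01033176 by -3.36, against -3.98 for Smad7. Which of the 4 probes differed most therefore depends on the background correction.

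A further 3 probes labelled R were well above background on every DMSO array and on no SB431542 array. For such probes only a bound can be given: the DMSO mean was divided by the mean of the treated arrays, after raising each treated array to the lowest signal that counted as well above background there where the probe was below it. Those lowest signals were 8.59, 8.97 and 10.9 on the SB431542 arrays. A_30_P01018863 read 1.79, 4.55 and 5.39 with SB431542 and 32.4, 29.4 and 31.9 with DMSO. The DMSO arrays were alike and the treated arrays were all below background, which makes the level at least 3.13-fold lower with SB431542. A_30_P01021075 read 2.21, 2.22 and 5.48 with SB431542 and 31.5, 30.8 and 22.9 with DMSO, a level at least 2.82-fold lower. Both belong to chr18:75518299-75524782, so that all 3 probes of this interval were lower in the treated cells. A_30_P01031636 of the interval chr18:75513062-75523889 read 2.11, 2.15 and 4.24 with SB431542 and 13.3, 19.6 and 22.4 with DMSO, and was at least 1.81-fold lower. Bounds of this kind hold for the processed signal only. With normexp the log2 differences were -0.50 for A_30_P01018863, -0.36 for A_30_P01021075 and -0.34 for A_30_P01031636, all smaller falls than these bounds.

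Dimmer probes of chr18:75513062-75523889 had the same direction, but on some of the treated arrays they were not above background. A_30_P01018521, labelled R, read 12.7, 7.08 and 14.4 with SB431542 and 47.2, 42.1 and 40.7 with DMSO. It was above background on 2 of the 3 treated arrays, the groups did not overlap, and the difference was -1.91. A_30_P01033493, labelled R, read 11.3, 9.93 and 5.52 with SB431542 and 30.6, 33.1 and 27.4 with DMSO. It too was above background on 2 treated arrays, with groups apart by -1.75. The probe A_30_P01026389 was the only one labelled F that was above background on all DMSO arrays. It read 7.02, 6.78 and 15.2 with SB431542 and 61.9, 56.4 and 61.0 with DMSO. Just 1 treated array, the third, was above background, the groups did not overlap, and the difference was -2.66. Since the treated signals of these 3 probes lie at or near the background, the sizes of their differences are not well measured. With normexp they were -0.46 for A_30_P01018521, -0.34 for A_30_P01033493 and -0.69 for A_30_P01026389.

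The interval chr18:75513062-75523889 was not uniform. A_30_P01032996, labelled R, read 93.6, 81.4 and 121 with SB431542 and 119, 110 and 110 with DMSO. Once each array was scaled, the third treated array lay among the DMSO arrays and the others below them, so the groups overlapped, with a difference of -0.14. A_30_P01028853, also labelled R, read 97.1, 94.9 and 155 with SB431542 and 120, 125 and 112 with DMSO. Here the third treated array lay above the DMSO arrays and the others below them, and the difference was 0.00. Without the third treated array the 2 differences were -0.22 and -0.15. Both probes were well above background on all 6 arrays, with the same letter and interval name as A_30_P01018607 and A_30_P01033176.

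The probes that were not above background on all DMSO arrays add little on level. A_30_P01030807, the probe of chr18:75448313-75456983, read 3.23, 2.14 and 4.65 with SB431542 and 11.4, 13.1 and 9.93 with DMSO. It was above background on 2 DMSO arrays and on no treated one, a level at least 1.15-fold lower with SB431542. A_30_P01030514, the probe of chr18:75501092-75501330, was below background on all 6 arrays, at 2.73 to 4.98 with SB431542 and 2.14 to 2.35 with DMSO. A_30_P01022101, labelled F, was above background on 1 array alone, the first with SB431542, at 24.9. It read 5.55 and 2.45 on the other treated arrays and 2.04 to 2.13 on the DMSO arrays. A_30_P01026349, labelled F, was above background on 1 DMSO array, with 1.80 to 2.17 with SB431542 and 5.05 to 11.8 with DMSO. The remaining 7 were below background throughout: A_30_P01018022, A_30_P01022178, A_30_P01024723, A_30_P01026743 and A_30_P01027184 with the label F, and A_30_P01017926 and A_30_P01032174 with the label R. Their measured differences ran from -1.80 to 0.47 and have no scale, because neither group was measured above background.

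**Figure D2:**
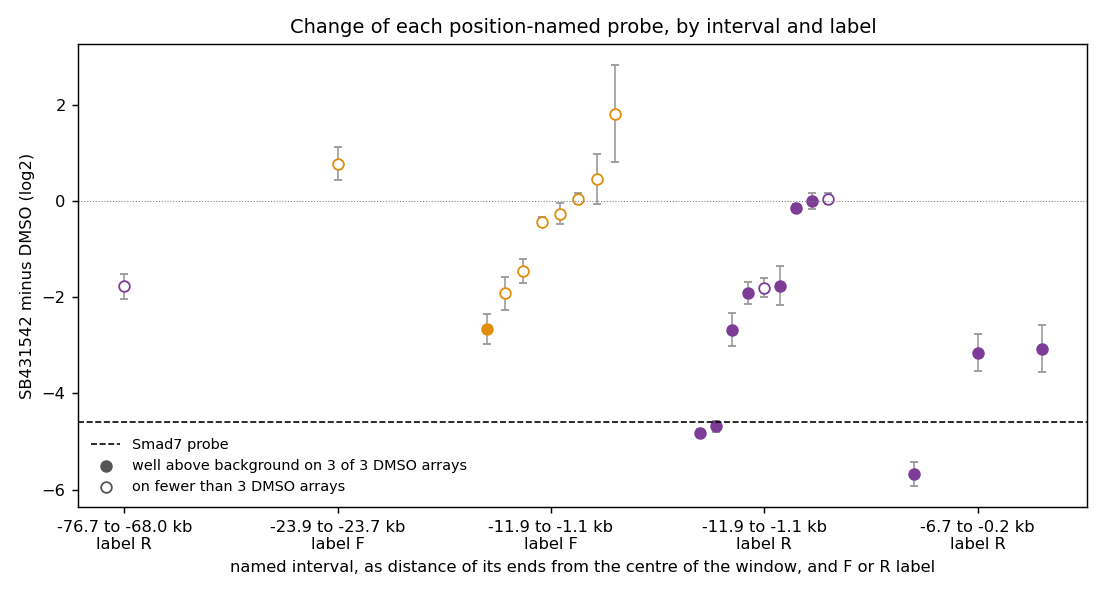
Difference between SB431542 and DMSO on the log2 scale (vertical axis, with the standard error from the SDs of 3 arrays each) for the 22 position-named probes, grouped by interval and F or R label; the horizontal axis gives each interval by the distance of its ends from the centre of the 250000 bp window. Filled points were well above background on all DMSO arrays, and the dashed line is Smad7 at -4.60; the filled points at -5.68, -4.83 and -4.69 are the probes with a strong DMSO signal.

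In sum over the 22 position-named probes, 11 were well above background on all DMSO arrays, 5 on all 6 arrays and 8 on none. The 11 comprised 10 of the 13 probes labelled R and 1 of the 9 labelled F. In 14 of the 22, every SB431542 array was below every DMSO array, and in 2 every SB431542 array was above. Of all features tested, 17.2% had every SB431542 array below every DMSO array. Only 11 of the 22 probes were tested, so that share and this count cover unlike sets. The window was chosen on these values, so nothing is read from the count. The median difference was -1.76 over all 22, -1.91 over the probes labelled R and -0.26 over those labelled F. Probes below background enter those medians, which therefore describe the scanner values and not a level of RNA. Among the 8689 position-named features tested on the whole array, 7.57% were called. Their median change was 0.02, which leaves out untested dim probes, unlike the medians above.

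The nearest position-named intervals outside the window were distant from it. Before the window, chr18:75131739-75144870 ended 255 kb away. Its probe A_30_P01027836, labelled F, read 10.6, 13.9 and 19.1 with SB431542 and 12.2, 15.4 and 18.4 with DMSO, with overlapping groups and a difference of -0.02. Its other probe, labelled R, and the 3 probes of chr18:75132417-75141201 were below background on all arrays. After the window, chr18:77291264-77299664 began 1641 kb away and had 10 probes, 2 of them above background on all arrays. Of these, A_30_P01018517 read 151, 130 and 264 with SB431542 and 167, 119 and 130 with DMSO, and A_30_P01019592 read 18.3, 14.9 and 28.0 with SB431542 and 17.6, 21.3 and 58.9 with DMSO. Both had overlapping groups. The 4 probes of chr18:77805693-77811218, 2156 kb away, were below background on all arrays.

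The genes on either side of Smad7 differed far less. Their order was read from a RefSeq gene table of the build GRCm38.p6, which was used for order only. The 10 nearest genes with a tested feature were taken on each side; this stretch of the table held 73 genes, of which 24 had a probe and 20 were tested. Lower levels were called for 2 of the 20, higher for 0, and 18 did not pass the test, with a median change of 0.01. The share called, 2 of 20, is near the 10.8% called among all features. At an unadjusted p under 0.05 in limma, 3 were lower and 1 higher. The share of all features past that unadjusted threshold was not computed. Nothing is therefore read from this count or from the unadjusted counts of the lists below.

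Ctif, which encodes a translation initiation factor that works with the nuclear cap-binding complex, was the nearest tested gene on one side, with 1 gene between it and Smad7 in the table. Its processed signal was 483, 474 and 460 with SB431542 and 804, 792 and 863 with DMSO. All treated arrays were below all DMSO arrays. Ctif fell by 0.72 ± 0.10 on the log2 scale (SE, n = 3 each; limma adjusted p = 0.0121). Leaving out any 1 of the DMSO arrays gave an adjusted p in limma of 0.0502 (replicate 1), 0.0521 (replicate 2) or 0.0567 (replicate 3), so the call was lost each time. The change of Ctif was then -0.73, -0.74 and -0.68. The count of all called features also fell, from 3383 to 1503, 1377 and 1431. Pias2, a SUMO ligase, read 7820, 6273 and 7938 with SB431542 and 10721, 10536 and 10186 with DMSO, again without overlap. Pias2 fell by 0.44 ± 0.06 (SE; limma adjusted p = 0.0109), and its adjusted p was 0.0548 without DMSO replicate 1 and 0.0589 without DMSO replicate 2. It lay on the same side as Ctif, 29 genes from Smad7 in the table. Rnf165, a ubiquitin ligase gene named after its value was seen, differed by -0.36 ± 0.09 without passing (limma adjusted p = 0.0546), but passed with normexp, quantile scaling, the authors' deposited table, the stricter filter and the mean of a gene's probes (limma adjusted p = 0.0119 to 0.0428).

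The other nearest tested genes did not pass the test. Dym, which encodes a protein of the Golgi apparatus, read 1392, 1276 and 1503 with SB431542 and 1568, 1623 and 1551 with DMSO, a difference of -0.11 ± 0.06 (limma adjusted p = 0.279). Its groups did not overlap, and 6 genes of the table lie between it and Smad7. The next on that side, BC031181, differed by 0.12 ± 0.06 (limma adjusted p = 0.226). Zbtb7c, a zinc finger gene on the side of Ctif, differed by 0.13 ± 0.20 (limma adjusted p = 0.727). Smad2, the receptor-activated Smad that carries Nodal and activin signals, lies 16 genes from Smad7 on the same side and differed by 0.14 ± 0.07 (limma adjusted p = 0.234).

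**Figure D3:**
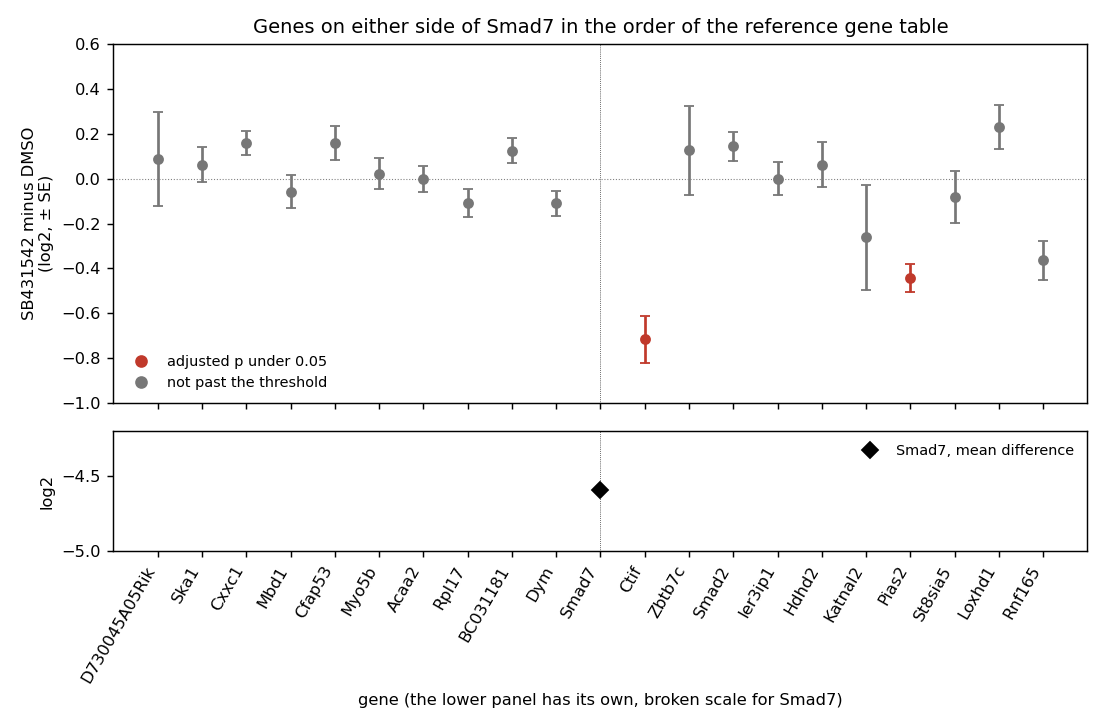
Log2 difference between SB431542 and DMSO for the 20 nearest genes tested and for Smad7 in their order in the reference gene table (horizontal axis); bars are standard errors of the fit, and the lower panel shows Smad7 on a scale of its own, without an error. Ctif at -0.72 and Pias2 at -0.44 are the genes past an adjusted p of 0.05, and Smad7 is at -4.60.

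Other genes of the pathway were read from 5 lists arranged by their relation to Smad7. Of 64 genes listed, 60 were tested, and 10 were lower, 3 higher and 47 not past the test, with a median change of -0.02. Among all features 6.62% were lower and 4.2% higher, and the counts of each list below stand beside those shares. Of the 10 lower genes, 7 are in the list of other inhibitors. All 5 lists were made with earlier results of these data known. Nothing is therefore read from the count over all lists, and the count of each list is a description. Of the 6 other Smad genes tested, 1 was lower and 1 higher. Smad6, the other inhibitory Smad, which acts mainly on BMP signals, read 153, 135 and 167 with SB431542 and 247, 249 and 239 with DMSO. Its groups were apart, and Smad6 fell by 0.62 ± 0.05 on the log2 scale (SE; limma adjusted p = 0.00207). Smad3, a transducer of the signals that SB431542 blocks, read 1761, 1708 and 1972 with SB431542 and 1522, 1594 and 1617 with DMSO. Its groups did not overlap, and Smad3 rose by 0.28 ± 0.06 (limma adjusted p = 0.0496). That adjusted p in limma lay between 0.0744 and 0.162 when any 1 array was left out, and over all 6 arrays it was 0.0515 with quantile scaling, 0.0521 in the authors' deposited table, 0.116 without the filter on dim probes and 0.215 with the mean of the gene's probes. The call of Smad3 was therefore lost in these settings as well as without any 1 array. The shared partner Smad4 differed by -0.11 ± 0.09 (limma adjusted p = 0.495), and the BMP transducers Smad1 by 0.01 ± 0.09 and Smad5 by -0.02 ± 0.05 (limma adjusted p = 0.968 and 0.859). Smad9 was not tested because it was too dim, and the median of the 6 tested was -0.01.

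The list of receptors that Smad7 acts on holds type I and type II receptors. None of its 9 tested genes passed the test, with changes of -0.19 to 0.21 and a median of 0.04. At an unadjusted p under 0.05 in limma 1 was lower and none higher. Bmpr1b, a type I receptor for BMPs, was above background on only 1 SB431542 array and 2 DMSO arrays and had a measured difference of -0.02 ± 0.20 (SE; limma adjusted p = 0.967), which says little about its level. The activin and Nodal type I receptor Acvr1b differed by 0.02 ± 0.16 and the type II receptor Acvr2b by 0.06 ± 0.10 (SE, n = 3 each; limma adjusted p = 0.962 and 0.758). Tgfbr2, the type II receptor for TGF-beta, named after its values were seen, had 2 probes above background on all arrays, which differed by 0.21 (the brighter, used here) and 0.44, and with the mean of its probes it passed as higher (0.33, limma adjusted p = 0.0499). The type II receptor Acvr2a, also named after its values were seen, had 2 probes above background on all arrays. They differed by 0.05 (the brighter, used here) and -0.34, and with their mean the gene did not pass (-0.15, limma adjusted p = 0.33). Acvr1c was not tested because it was too dim.

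Of the 19 genes for partners of Smad7 and for the turnover of its protein, 1 was higher and none lower, and the median was 0.00. At an unadjusted p under 0.05 in limma 2 were lower and 3 higher. Smurf1, a ubiquitin ligase that Smad7 brings to receptors, read 688, 639 and 779 with SB431542 and 605, 574 and 636 with DMSO. Smurf1 rose by 0.29 ± 0.06 on the log2 scale (limma adjusted p = 0.0394), and without any 1 of the 6 arrays its adjusted p was 0.072 to 0.144. It was 0.0971 without the filter on dim probes. Smurf2, its relative, read 709, 646 and 778 with SB431542 and 834, 880 and 908 with DMSO, a difference of -0.22 ± 0.06 that did not pass (limma adjusted p = 0.0739). The ligases Nedd4l, Itch and Rlim had the largest adjusted p of the list, at 0.00 ± 0.06, -0.02 ± 0.06 and -0.02 ± 0.09 (limma adjusted p = 0.98, 0.903 and 0.893). Usp15, named after its values were seen, had 2 probes above background on all arrays. They differed by -0.07 (the brighter, used here) and 0.56.

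Of the other inhibitors of the pathway 7 of 12 tested were lower, where 6.62% of all features were, and none was higher, with a median of -0.61, and at an unadjusted p under 0.05 in limma 8 were lower and none higher. Like the other lists, it was made with earlier results of these data known, so its count is a description. Lefty1, a secreted antagonist of Nodal, read 10.4, 15.0 and 18.3 with SB431542 and 10517, 9807 and 10615 with DMSO. It was above background on 2 of the 3 treated arrays, the groups were far apart, and Lefty1 fell by 9.43 ± 0.20 on the log2 scale (limma adjusted p = 3.9e-05). Lefty2, a related antagonist, read 156, 125 and 132 with SB431542 and 4291, 4225 and 4009 with DMSO. Lefty2 fell by 4.85 ± 0.11 (limma adjusted p = 4.36e-05) with no overlap. Pmepa1, which encodes a membrane protein that binds Smad2 and Smad3, read 35.5, 22.9 and 28.3 with SB431542 and 198, 180 and 184 with DMSO. Pmepa1 fell by 2.64 ± 0.14 (limma adjusted p = 0.000632).

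Skil, a nuclear repressor that binds Smads, read 1053, 1067 and 1257 with SB431542 and 2910, 3005 and 3067 with DMSO, and fell by 1.34 ± 0.07 (limma adjusted p = 0.000632). Ldlrad4, a membrane protein related to that of Pmepa1, fell by 1.52 ± 0.18 (limma adjusted p = 0.006). It was above background on 2 of the 3 treated arrays, so the size of its fall is not well measured. Fst, which encodes the activin-binding protein follistatin, fell by 0.60 ± 0.09 (limma adjusted p = 0.0138). Its adjusted p in limma was 0.0661 without DMSO replicate 2 and 0.0613 without DMSO replicate 3. Ski, the relative of Skil, fell by 0.63 ± 0.11 (limma adjusted p = 0.0196), a gene named after its value was seen. Its adjusted p in limma was 0.0546 without SB431542 replicate 3 and 0.0708 to 0.0818 without any 1 of the DMSO arrays, and 0.0506 without the filter on dim probes. With normexp, the changes of Lefty1, Pmepa1, Ldlrad4 and Ski were -6.89, -1.36, -0.42 and -0.38, all still past the threshold. The repressor Tgif2 and the BMP antagonists Chrd and Nog did not pass, at 0.04 ± 0.07, 0.08 ± 0.15 and 0.34 ± 0.17 (limma adjusted p = 0.76, 0.752 and 0.272). Bambi and Cer1 were too dim to be tested. Vasn, named after its values were seen, differed by -0.25 ± 0.12 without passing (limma adjusted p = 0.263). It passed as lower without SB431542 replicate 3 (-0.37, limma adjusted p = 0.046). The other of its 2 probes differed by 0.14 over all 6 arrays.

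Of 14 genes for transcription factors that act on the Smad7 gene in some cell types, 2 were lower and 1 higher, with a median of -0.01. Irf1, an interferon response factor, fell by 0.71 ± 0.06 on the log2 scale (limma adjusted p = 0.00182), with 2737, 2390 and 3107 on the SB431542 arrays and 4911, 4626 and 4559 on the DMSO arrays. Fos, a component of AP-1, fell by 0.63 ± 0.05 (limma adjusted p = 0.00241), with 71.3, 64.4 and 83.1 with SB431542 and 116, 119 and 120 with DMSO. Usf1, an E-box factor, rose by 0.40 ± 0.07 (limma adjusted p = 0.0187). Usf1 had an adjusted p in limma of 0.0513 or 0.0612 without SB431542 replicate 1 or 2, and of 0.0788 or 0.0865 without DMSO replicate 1 or 2. It was 0.0519 without the filter on dim probes. With normexp, the changes of Fos and Usf1 were -0.35 and 0.26, both still past the threshold. Jund, Nfkb1 and Jun did not pass, at 0.04 ± 0.07, -0.06 ± 0.08 and -0.05 ± 0.06 (limma adjusted p = 0.791, 0.672 and 0.597). Foxh1, named after its values were seen, differed by 0.26 ± 0.07 without overlap but did not pass (limma adjusted p = 0.0741). It passed with normexp (0.28, limma adjusted p = 0.0311) and in no other setting.

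**Figure D4:**
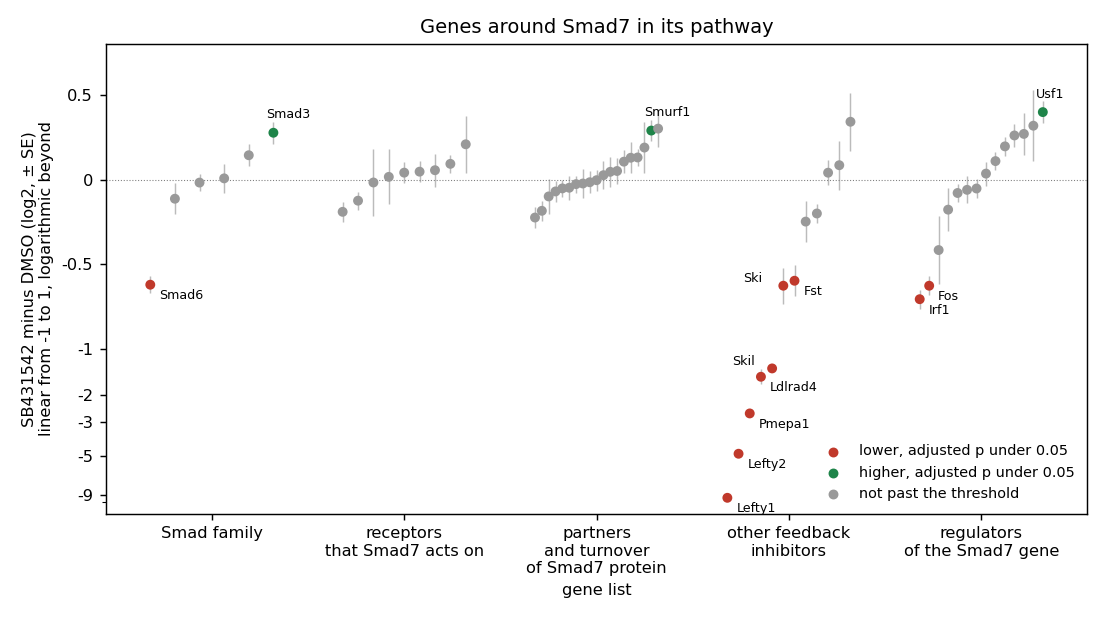
Log2 difference between SB431542 and DMSO with its standard error (vertical axis, linear from -1 to 1 and logarithmic beyond) for the 60 tested genes of the 5 pathway lists (horizontal axis); each point is a gene, and genes past an adjusted p of 0.05 are coloured and named. The 7 called genes of the other feedback inhibitors lie between -9.43 for Lefty1 and -0.60 for Fst, while the receptors have no called gene.

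The genes most like Smad7 were ranked by the root mean square distance between log2 profiles over the 6 arrays, each profile first centred on its own mean. With 3 arrays against 3, such a distance mostly reflects the size of the group difference. Hoxb13, a homeobox gene, was nearest at 0.067, with log2 levels of -3.92, -3.80 and -3.91 with SB431542 and 0.74, 0.69 and 0.66 with DMSO. Lefty2 followed at 0.163 and Mup6, a major urinary protein gene, at 0.378. Tmem63a was at 0.562, Duxbl1 at 0.586, Fgf15 at 0.650, Irgm1 at 0.677, Fgf5 at 0.709, Ucma at 0.728 and Rtp4 at 0.761. Pearson's r with Smad7 over the 6 arrays, which fall into 2 groups, was 0.97 to 1.00 for these 10 genes. Among all features, position-named ones included, the members A_30_P01018607 at 0.133 and A_30_P01033176 at 0.150 ranked 2 and 3, and A_30_P01029585 at 0.606 ranked 8. The other tested members ranked from 17 for A_30_P01021075 to 15154 for A_30_P01028853. These ranks come from the values that chose the members, so nothing is read from them. Of the 10 genes, Duxbl1, Fgf5 and Rtp4 were above background on 3 arrays only, those with DMSO. Fgf15 was above background on 4 arrays, Ucma on 5 and the rest on all 6. The distances of Duxbl1, Fgf5, Rtp4, Fgf15 and Ucma therefore rest partly on values not above background.

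**Figure D5:**
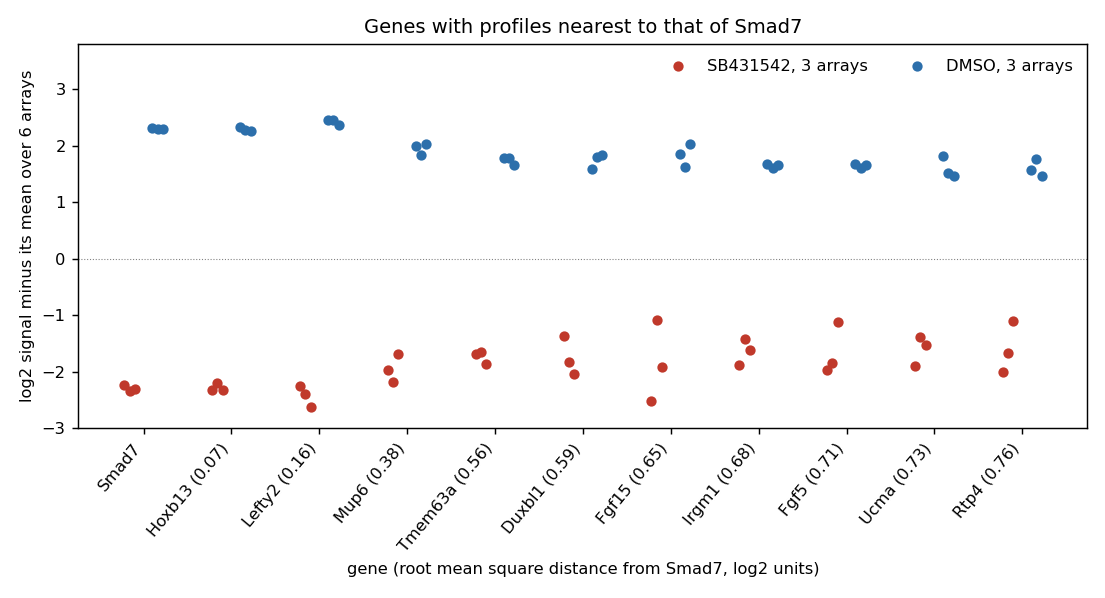
Log2 signal minus its mean over the 6 arrays (vertical axis) for Smad7 and the 10 genes with the nearest profiles, in order of the distance given beside each name (horizontal axis); points are arrays. In every gene shown all 3 SB431542 arrays lie below all 3 DMSO arrays, and the gap is widest in Smad7, Hoxb13 and Lefty2.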

How the data were processed

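The deposited intensity values are linear and were background-subtracted and detrended for each spot by Agilent Feature Extraction, per the file headers, in version 10.7, per the submitters' processing notes. The same program wrote the deposited flags, which have a score of 0 or 1, for spots well above background, saturated or outlying, per the file headers. Outlier spots were left out, which removed 81 of 55681 probes and no member, and spots of a probe were averaged as log2 values. Each array was set to its 75th percentile. Of the 55600 probes kept, 27200 were named through RefSeq accessions. Features were fitted with limma 3.58.1 in R 4.3.3, without a block, and adjusted by Benjamini-Hochberg. The authors' deposited log2 table correlated at 0.99988 or more with the log2 processed signal. Its column medians were 5.18 to 5.19, its scale is log2 and its centring is not given, and it served as an alternative. Normexp with an offset of 50 used the median signal of each spot in place of the planned mean. Other alternatives were quantile and median scaling, the filter on dim probes, the mean of a gene's probes, slide and replicate blocks, and leaving out each array. Members, lists and tests were chosen with earlier results of these data known. Genes named are the members, the nearest neighbours and those past the threshold, up to 6 called and 3 uncalled genes of each list, 6 Smad and Smurf genes by name, and the 10 most like Smad7. Some others are marked above as named after their values were seen. The number of arrays limits the precision.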

Additional observations from a re-analysis of the deposited data

How the results depend on the processing

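Smad7 differed by -4.60 on the log2 scale, by -3.98 with normexp and by -4.48 in the authors' deposited table, and by -4.62 to -4.58 when each array was left out. The median over the 22 position-named probes was -1.76, but -0.10 with normexp, whose added offset flattens dim probes, and -1.84 to -1.58 when each array was left out. The count of called features was 3383, 1889 without the filter on dim probes, 1178 at an adjusted p of 0.01, and 1377 to 2789 when each array was left out. The neighbouring genes called numbered 2, 0 to 2 when each array was left out, and 3 with normexp, quantile scaling, the authors' deposited table, the filter on all arrays or the mean of a gene's probes. The called pathway genes numbered 13, and 8 to 11 when each array was left out. The SB431542 and DMSO arrays share replicate numbers, but same-numbered arrays did not deviate together (r = -0.00, 0.06 and -0.05 over features). With the replicate block 1359 features, 0 neighbouring genes and 8 pathway genes were called, and Smad7 differed by -4.60. Slide and treatment are only partly separable, since the other slide held 1 SB431542 array and no DMSO array. The causes of these shifts were not tested beyond what the settings themselves change. Signals near the background limit what can be said of the 11 position-named probes that were not above it on all DMSO arrays.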
